A study of Drosophila melanogaster with 4 samples.

Results

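The methionine cycle, transsulfuration, the folate cycle and serine synthesis were described by 10 enzyme genes, out of 13990 gene symbols in the deposited tables. The genes were chosen by name, and all 10 were found. Cbs is listed under its older name CG1753, and 4 others carry newer names in RefSeq: CG6188 is Gnmt, Ahcy13 is Ahcy, Eip55E is Cth and CG3011 is Shmt. Transcript levels come from the fat body, a larval organ of storage and intermediary metabolism, dissected from 3rd instar larvae of Drosophila melanogaster at 110 h after egg laying. All larvae carry the label yw and the muscle driver dMef2-Gal4. In the control group (Con, genotype dMef2-Gal4/UAS-white-RNAi) the driver expressed RNAi against white, an eye pigment transporter gene. In the other group (ND-75-i, genotype dMef2-Gal4/UAS-ND-75-RNAi) it expressed RNAi against ND-75, a subunit of mitochondrial complex I. Each group had 2 samples, each a pool of 10 fat bodies, so the perturbed tissue is muscle and the measured tissue is another one. Nothing in the labels says that the samples of a group came from separate crosses, so the p-values speak for the variation among these particular samples, possibly technical.

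These enzymes form a connected set of cycles. Serine made from a glycolytic intermediate gives a carbon unit to folate, and folate carries such units to purines, thymidylate and methionine. Methionine is activated to S-adenosylmethionine, the general methyl donor, and after transfer of the methyl group homocysteine is either methylated again or passed with serine into cysteine by transsulfuration. The larval fat body is a main site of this metabolism, and in flies its glycine N-methyltransferase is known to lower S-adenosylmethionine by methylating glycine. In mammalian cells mitochondrial stress is known to raise serine and mitochondrial folate genes through the transcription factor ATF4, whose fly counterpart is crc.

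Values are FPKM, fragments scaled to transcript length and to the mapped fragments of a library, computed by the authors for whole genes, and in each pair of values below replicate 1 precedes replicate 2. FPKM are already per length, so levels can be set side by side between genes. Changes are ND-75-i minus Con on the log2(FPKM + 1) scale, from a limma fit to the 10023 genes tested, with p-values adjusted over all of them by the Benjamini-Hochberg method and a threshold of 0.05. The median of all genes tested was 0.25 higher in ND-75-i on this scale, and -0.01 after the libraries were rescaled by median ratios. ND-75 itself was at 46.6 and 43.9 FPKM in the Con libraries, compared with 94.8 and 79.0 FPKM in the ND-75-i libraries. The value of w was 2.48 and 5.37 FPKM in Con against 2.11 and 6.96 FPKM in ND-75-i. Neither gene measures the knockdown in muscle.

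The libraries also differed in markers of development and of other tissues, and their part in the results below was not tested. The 7 fat body markers with a valid estimate in every library summed to 76470 and 80330 FPKM in the Con libraries, compared with 13900 and 25920 FPKM in the ND-75-i libraries. In that list Fbp2 ranged from 6380 to 33073 FPKM over the 4 libraries and the storage protein gene Lsp1alpha from 2893 to 28004 FPKM. Lsp1alpha was called lower (log2 change -2.88, adjusted p = 0.022, and 0.0294 after median-ratio rescaling), and Fbp2 was not (adjusted p = 0.116). Fbp1, named after its values were seen, was at 14971 and 17897 FPKM in Con versus 22.5 and 393 FPKM. Its log2 change was -7.41 (adjusted p = 0.0594), and its ND-75-i replicates differed 17.5-fold. By group mean 5 of these 7 genes were lower in ND-75-i and 2 were higher. The 2, named after their values were seen, were the lipoprotein gene apolpp (2688 and 2237 FPKM in Con versus 2940 and 3098 FPKM) and the hormone receptor gene AkhR (73.9 and 70.3 FPKM in Con versus 131 and 129 FPKM, adjusted p = 0.0220, and 0.0792 after median-ratio rescaling). The 8 salivary gland genes summed to 84270 and 39530 FPKM in the Con libraries, compared with 28780 and 19950 FPKM in the ND-75-i libraries, with 7 of 8 lower by group mean and Sgs7 and Sgs3 the most abundant (11379 to 48873 and 3331 to 13533 FPKM). The 1 salivary gene that was higher, ng1, named after its values were seen, was at 143 and 35.6 FPKM in Con versus 1595 and 1456 FPKM (adjusted p = 0.0446, and 0.0732 after median-ratio rescaling). Hemocyte genes summed to 119.9 and 256.4 FPKM in the Con libraries, compared with 80.2 and 101.4 FPKM in the ND-75-i libraries, all 8 lower by group mean, with PPO2 (12.6 to 76.4 FPKM) and srp (37.1 to 46.6 FPKM) the most abundant. Gonad genes summed to 97.4 and 84.5 FPKM in Con versus 48.6 and 9.75 FPKM, also all 8 lower by group mean, with Mst98Ca (4.52 to 43.3 FPKM) and betaTub85D (2.78 to 39.8 FPKM) the most abundant. The 12 muscle genes were low throughout, at 44.7 and 50.9 FPKM in Con versus 77.3 and 56.2 FPKM in sum, 8 of 12 higher by group mean. The most abundant of them were Act57B (6.62 to 21.4 FPKM), among the 8, and TpnC73F (6.01 to 11.3 FPKM), among the 4 that were lower. The 8 gut genes summed to 405.5 and 2870 FPKM in the Con libraries, compared with 802.0 and 2396 FPKM in the ND-75-i libraries, a sum that was high in replicate 2 of both groups and was made up mostly of Jon65Aiv (239 to 1819 FPKM) and Jon65Aiii (136 to 796 FPKM). By group mean 4 were higher and 4 lower, and Jon99Ciii, named after its values were seen, was at 0.108 and 0.106 FPKM in Con versus 82.3 and 103.7 FPKM. In pooled tissue, fewer cells of a type and less RNA per cell cannot be told apart.

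Across the pathway the members went separate ways. Eip55E, the last enzyme of transsulfuration, fell in ND-75-i, whereas Cbs, the enzyme before it, stood about 4 times higher and missed the threshold. The serine phosphatase gene aay stood 2.44-fold higher, also short of the threshold, and the methyl sink CG6188 stood 2.99-fold lower with a wide spread between replicates. Sam-S, Ahcy13, CG3011, Nmdmc, pug and CG6287 lay within 1.26-fold of Con by group mean. Of the 10 members 0 passed with ND-75-i higher and 1 passed with ND-75-i lower, where 7.76% and 1.09% of all genes tested passed in those directions, or 8.85% together. By a raw p below 0.05 the members gave 2 higher and 2 lower genes, where 29.4% of all genes tested were higher and 7.7% lower. The libraries of the groups did not overlap for 5 members with ND-75-i above and for 2 with ND-75-i below, against 53.7% and 21.7% of all genes tested. The median change of the members was 0.17, and -0.10 after median-ratio rescaling. All 10 members reached 1 FPKM in every library, so none entered the fit through 1 group alone.

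**Figure D1:**
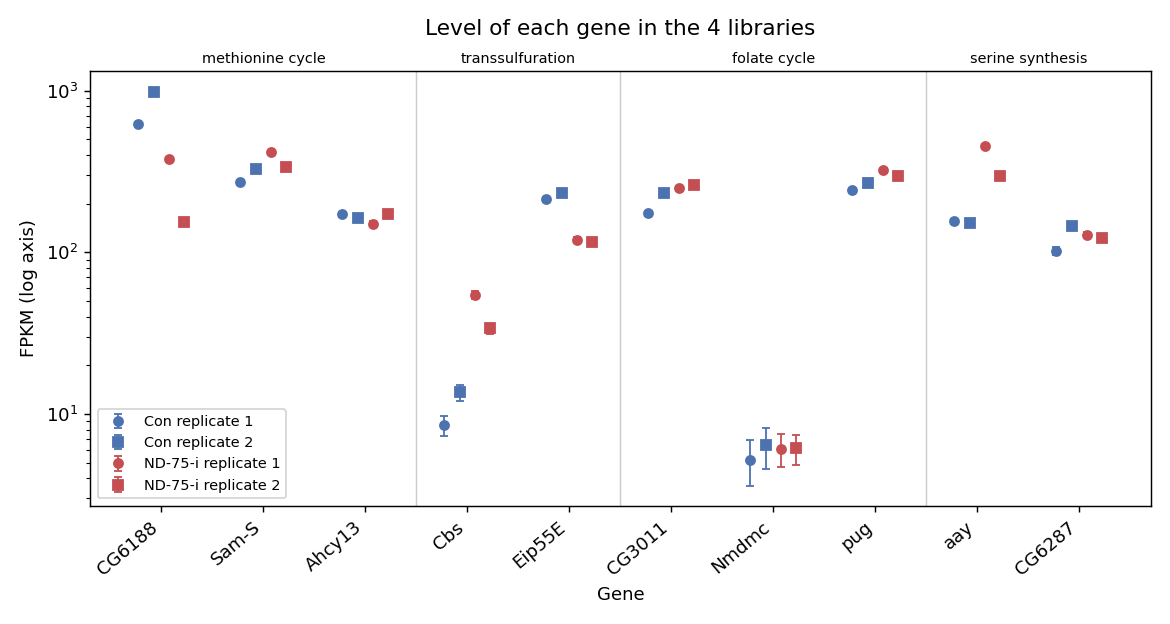
FPKM on a log axis for the 10 genes in the 4 libraries, Con in blue and ND-75-i in red, circles for replicate 1 and squares for replicate 2, with the authors' deposited lower and upper bounds as bars. Cbs and aay lie higher and Eip55E and CG6188 lower in both ND-75-i libraries, and Nmdmc lies near 6 FPKM in all 4.

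In Con the order of the levels was led by CG6188 at 799 ± 252 FPKM (SD, n = 2), followed by Sam-S at 300.1 ± 41.5, pug at 255 ± 17.8, Eip55E at 223 ± 13.3 and CG3011 at 204 ± 41.1 FPKM. Ahcy13 (168 ± 5.67 FPKM), aay (154 ± 2.45 FPKM) and CG6287 (124 ± 30.6 FPKM) came next. Cbs (11.1 ± 3.64 FPKM) and Nmdmc (5.81 ± 0.843 FPKM) closed the order. Of neighbours in that order the libraries overlapped only between Eip55E and CG3011. In ND-75-i the first 5 places went to Sam-S (377 ± 54.1 FPKM), aay (375 ± 113 FPKM), pug (310 ± 20.3 FPKM), CG6188 (267 ± 160 FPKM) and CG3011 (256 ± 6.90 FPKM), and each of these overlapped its neighbour. The gene aay thus moved from place 7 to place 2 and Eip55E from place 4 to place 8. Cbs and Nmdmc kept places 9 and 10.

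The bounds deposited with each FPKM give the precision the authors assigned to a single library. The upper bound lay 1.70% to 14.3% above the FPKM for the 9 members other than Nmdmc, and 21.2% to 31.3% above it for Nmdmc. The bounds of the 2 Con libraries did not overlap for 7 of 10 members, nor those of the 2 ND-75-i libraries for 6 of 10. Replicates therefore differed by more than their bounds for most members.

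The methionine cycle was represented by 3 enzymes, which differed in their values. Sam-S, S-adenosylmethionine synthetase (chromosome 2L, 106903 to 114433), was at 271 and 330 FPKM in the Con libraries, compared with 415 and 339 FPKM in the ND-75-i libraries. The lowest ND-75-i library lay just above the highest Con library. Its log2 change was 0.33 (95% interval -0.13 to 0.78, adjusted p = 0.206), 0.04 with libraries rescaled by median ratios and -0.14 with quantile normalization.

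CG6188, glycine N-methyltransferase (chromosome 3R, 8500331 to 8501806), uses S-adenosylmethionine to methylate glycine. It was at 621 and 978 FPKM in the Con libraries, compared with 380.3 and 154 FPKM in the ND-75-i libraries. Both ND-75-i libraries lay below both Con libraries, but the 2 Con libraries differed 1.57-fold and the 2 ND-75-i libraries 2.47-fold. Its log2 change of -1.68 had a 95% interval from -3.14 to -0.22 and did not pass (SE 0.523, unadjusted p = 0.0329, adjusted p = 0.112). Among the alternatives run it passed only without ND-75-i replicate 1 and with the low filter reapplied to the libraries left (-2.33, adjusted p = 0.0371). By level it ranked 178 and 131 among the 10023 genes tested in the Con libraries, then 319 and 628 in the other group.

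Ahcy13, adenosylhomocysteinase (chromosome X, 15344295 to 15346683), removes the product of every such methyl transfer. It was the flattest of the 3, at 172 and 164 FPKM in the Con libraries, compared with 150.5 and 172 FPKM in the ND-75-i libraries, with overlapping groups. The log2 change was -0.06 (95% interval -0.35 to 0.22, adjusted p = 0.657), and -0.35 after median-ratio rescaling (adjusted p = 0.183). That interval covers folds from 0.786 to 1.17.

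Transsulfuration held the 1 member that fell. Cbs, cystathionine beta-synthase (chromosome X, 20916165 to 20920127), joins homocysteine to serine. It was at 8.48 and 13.6 FPKM in the Con libraries, compared with 54.3 and 33.8 FPKM in the ND-75-i libraries. The lower ND-75-i library stood well above the higher Con library, while the replicates of each group differed 1.61-fold. The log2 change was 1.90 (SE 0.339, 95% interval 0.95 to 2.84), with an adjusted p of 0.0534. That p was 0.0473 with a pseudocount of 5 and 0.0408 when genes with a mean under 5 FPKM were left out. It was also below the threshold with a replicate block (0.0457). The threshold was missed after median-ratio rescaling (1.62, adjusted p = 0.0692) and after quantile normalization (adjusted p = 0.0516). It was also missed with a pseudocount of 0.1, with no low filter and with no intensity trend. With any 1 library left out the change lay between 1.56 and 2.23.

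Eip55E, cystathionine gamma-lyase (chromosome 2R, 14515399 to 14516784), splits cystathionine into cysteine, and its older name marks it as an ecdysone-induced protein. It was at 213 and 232 FPKM in the Con libraries, compared with 119 and 116 FPKM in the ND-75-i libraries. Replicates stood close together in both groups, and the groups were far apart. It fell by 0.92 on the log2 scale (SE 0.0864, 95% interval -1.16 to -0.68, adjusted p = 0.0220), a level 1.90-fold lower. The change was -1.21 after median-ratio rescaling (adjusted p = 0.0229). With any 1 library left out and the same genes tested, the call was lost, at an adjusted p between 0.0557 and 0.137 and a change between -0.98 and -0.86. Where the low filter was instead reapplied to the 3 libraries left, it held without ND-75-i replicate 1 (adjusted p = 0.0432) and was lost without each of the other 3. It was also lost without an intensity trend in the fit (adjusted p = 0.05).

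The ratio of the 2 transsulfuration genes is unchanged by any factor that scales a whole library, as in median-ratio rescaling. Quantile normalization is not such a factor. Cbs over Eip55E was 0.0397 and 0.0587 in the Con libraries and 0.457 and 0.292 in the ND-75-i libraries, 7.61 times higher by group mean. An exact permutation test of 2 libraries against 2 cannot give a two-sided p below 0.333, so this ratio and the other 10 are given with no test. The 11 pairs were chosen after values of the genes and of some of the ratios had been seen.

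**Figure D2:**
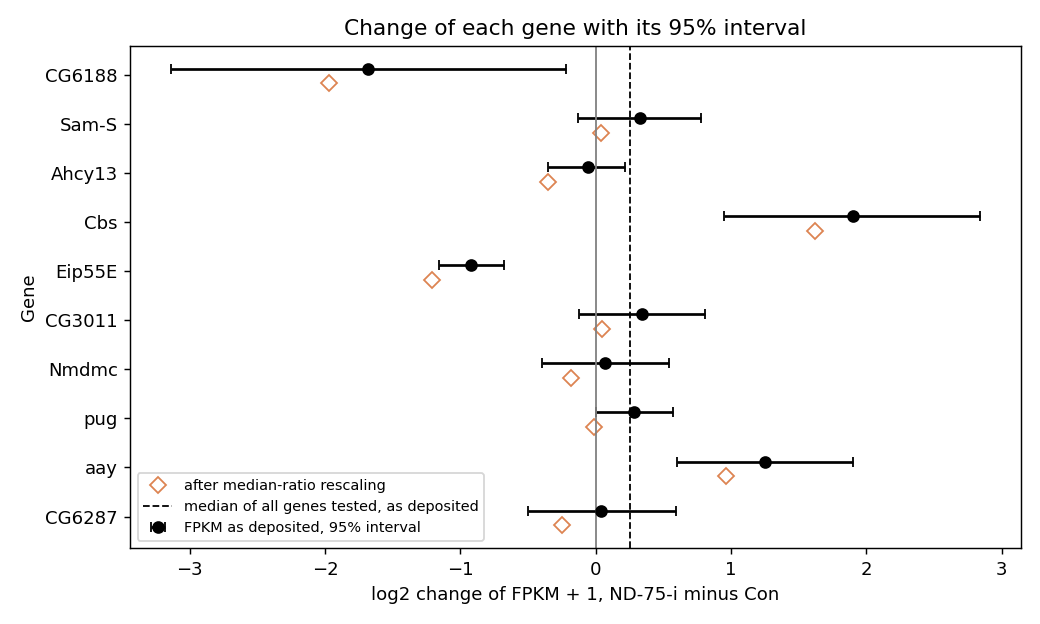
Log2 change of FPKM + 1, ND-75-i minus Con, for the 10 genes, with 95% intervals from the limma fit (black) and the change after median-ratio rescaling (open diamonds); the dashed line is the median of all genes tested, 0.25. Eip55E and CG6188 have intervals below 0, Cbs and aay have intervals above the dashed line, and the other 6 lie near 0 or the dashed line.

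Serine synthesis has 3 steps from 3-phosphoglycerate. The first, phosphoglycerate dehydrogenase, is CG6287 (chromosome 2L, 11151506 to 11155716), at 102 and 146 FPKM in the Con libraries, compared with 128 and 123 FPKM in the ND-75-i libraries. Both ND-75-i libraries lay between the Con libraries. The log2 change was 0.04 (95% interval -0.50 to 0.59, adjusted p = 0.882), and -0.25 after median-ratio rescaling (adjusted p = 0.321).

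The last step, phosphoserine phosphatase, is aay (astray; chromosome 3L, 9416353 to 9417904), at 155 and 152 FPKM in the Con libraries, compared with 455 and 295 FPKM in the ND-75-i libraries. Con replicates were nearly equal and both ND-75-i libraries stood clear of them, but 1.54-fold apart from each other. The log2 change was 1.25 (SE 0.233, 95% interval 0.60 to 1.90), with an adjusted p of 0.0562, and 0.0449 when genes with a mean under 5 FPKM were left out. With any 1 library left out the change lay between 0.94 and 1.56. Rescaled by median ratios it was 0.96 (adjusted p = 0.0896). The threshold was also missed after quantile normalization (0.84, adjusted p = 0.0764), with either other pseudocount, with no low filter and with no intensity trend. It was passed with a replicate block (adjusted p = 0.0318).

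The step between them, phosphoserine aminotransferase, is CG11899, which was not among the 10 members. It was at 8.46 and 14.1 FPKM in the Con libraries, compared with 34.5 and 27.1 FPKM in the ND-75-i libraries, a log2 change of 1.40 (SE 0.285, 95% interval 0.61 to 2.20, adjusted p = 0.0624). The 2 later steps thus stood higher by a similar factor, 2.74-fold and 2.44-fold by group mean, beside a first step whose groups overlapped. Within libraries CG11899 over CG6287 was 0.0827 and 0.0966 in the Con libraries and 0.269 and 0.220 in the ND-75-i libraries, and aay over CG6287 was 1.52 and 1.04 against 3.56 and 2.40. Over CG3011, which uses serine, aay was 0.889 and 0.652 in the Con libraries and 1.81 and 1.13 in the ND-75-i libraries. By contrast aay over CG11899 overlapped between groups, at 18.4 and 10.8 in the Con libraries and 13.2 and 10.9 in the ND-75-i libraries.

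None of the 3 folate cycle members passed. CG3011, serine hydroxymethyltransferase (chromosome X, 5807099 to 5810826), moves a carbon from serine to tetrahydrofolate. It was at 175 and 233 FPKM in the Con libraries, compared with 251 and 261 FPKM in the ND-75-i libraries, above Con in both libraries by a narrow gap. The log2 change was 0.34 (95% interval -0.12 to 0.81, adjusted p = 0.197), 0.05 with libraries rescaled by median ratios and -0.07 with quantile normalization.

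The trifunctional cytosolic enzyme pug (pugilist, methylenetetrahydrofolate dehydrogenase, cyclohydrolase and formyl ligase; chromosome 3R, 6522240 to 6529011) carries those units to formylfolate. It was at 243 and 268 FPKM in the Con libraries, compared with 325 and 296 FPKM in the ND-75-i libraries. There was no overlap between groups, and the log2 change was 0.28 (SE 0.102, adjusted p = 0.137), close to the median of all genes, and -0.01 after median-ratio rescaling. Within libraries pug over CG3011 overlapped between groups, at 1.39 and 1.15 in the Con libraries and 1.29 and 1.13 in the ND-75-i libraries.

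Nmdmc (chromosome 3R, 4868226 to 4876271) encodes the NAD-dependent mitochondrial methylenetetrahydrofolate dehydrogenase and cyclohydrolase, whose mammalian counterpart is a known ATF4 target. It was the lowest member, at 5.21 and 6.41 FPKM in the Con libraries, compared with 6.09 and 6.13 FPKM in the ND-75-i libraries. All 4 libraries had overlapping bounds, for example 3.58 to 6.85 FPKM in Con replicate 1 and 4.83 to 7.43 FPKM in ND-75-i replicate 2. The log2 change was 0.07 (95% interval -0.40 to 0.54, adjusted p = 0.772), and -0.18 after median-ratio rescaling. Nmdmc over CG3011 was 0.0298 and 0.0275 in the Con libraries and 0.0242 and 0.0235 in the ND-75-i libraries, 0.832 times by group mean.

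Some members share exons with other annotated genes, and the strand setting of the counting is not given in the sources used here. Exons of Mst85C overlap Nmdmc on the opposite strand, and Mst85C was at 7.77 and 10.7 FPKM in the Con libraries, compared with 10.97 and 9.36 FPKM in the ND-75-i libraries. These levels are as high as those of Nmdmc itself, so its value is uncertain. CG12236 overlaps CG3011 on the opposite strand at 3.16 to 5.78 FPKM, far below it. CG14683 overlaps pug on the same strand at 11.8 and 16.2 FPKM in the Con libraries, compared with 36.5 and 33.7 FPKM in the ND-75-i libraries. Overlapping genes of CG6188 (CG43630) and CG11899 (Mesh1), both on the opposite strand, are named in the annotation at hand and were not analysed here. The same holds for CG46459, on the same strand as pug, and for asRNA:CR44108, on the strand opposite CG3011.

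**Figure D3:**
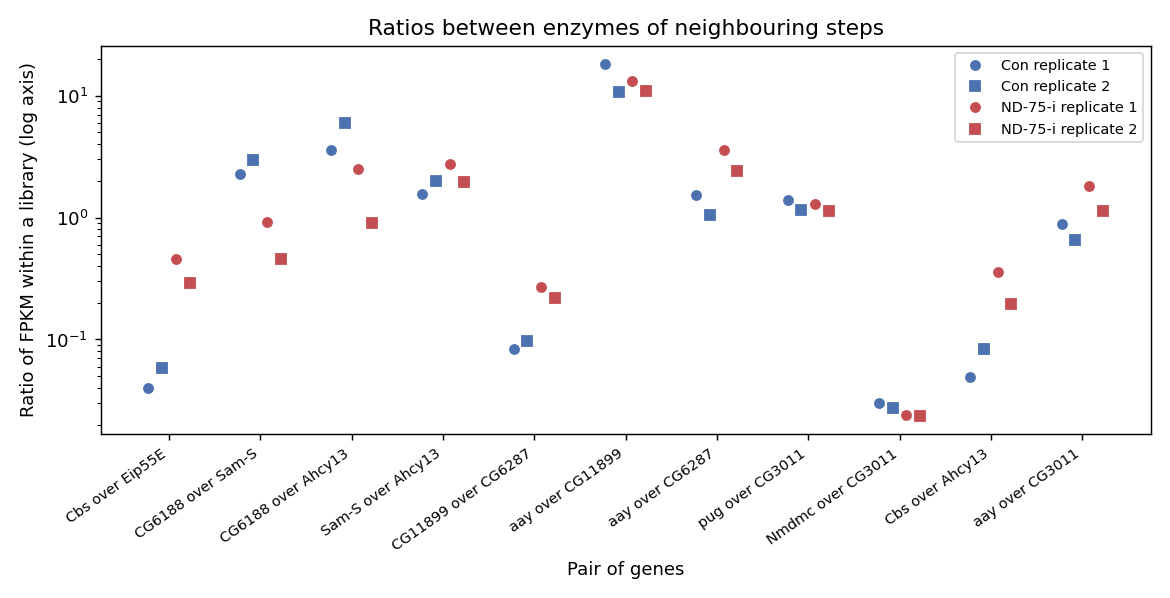
Ratios of FPKM between 2 enzymes within a library, on a log axis, with circles for replicate 1, squares for replicate 2, Con in blue and ND-75-i in red. The libraries of the groups are farthest apart for Cbs over Eip55E (0.0397 and 0.0587 against 0.457 and 0.292), whereas Sam-S over Ahcy13, aay over CG11899 and pug over CG3011 overlap.

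Ratios within the methionine cycle separated CG6188 from its neighbours. CG6188 over Sam-S was 2.29 and 2.97 in the Con libraries and 0.916 and 0.454 in the ND-75-i libraries, and CG6188 over Ahcy13 was 3.61 and 5.97 against 2.53 and 0.897. Sam-S over Ahcy13 overlapped, at 1.58 and 2.01 against 2.76 and 1.98. The transcript of glycine N-methyltransferase thus exceeded that of the synthetase in Con and was below it in ND-75-i, in both libraries of each group. Cbs over Ahcy13, the enzyme that releases its substrate homocysteine, was 0.0493 and 0.0832 in the Con libraries and 0.361 and 0.197 in the ND-75-i libraries. Summed by role, the 3 methionine cycle genes stood at 1064 and 1471 FPKM in the Con libraries, compared with 946 and 664 FPKM in the ND-75-i libraries. Of these genes CG6188 alone was lower without overlap, while Sam-S was higher and Ahcy13 overlapped. The 2 transsulfuration genes summed to 222 and 246 FPKM in Con versus 173 and 150 FPKM, with Eip55E lower and Cbs higher. For serine synthesis the 2 members summed to 258 and 297 FPKM in the Con libraries, compared with 583 and 419 FPKM in the ND-75-i libraries. Of these aay was higher and CG6287 overlapped. The 3 folate genes summed to 423 and 507 FPKM in Con versus 582 and 563 FPKM. All 10 summed to 1966 and 2521 FPKM in Con versus 2284 and 1796 FPKM, with overlapping groups.

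A wider list of 26 genes around the members was read from the same fit. CG7560 reached 1 FPKM in the ND-75-i libraries alone and is left out of the counts here. Of the other 25 genes 1 rose and 0 fell, beside 7.76% and 1.09% of all genes by the adjusted p. By a raw p below 0.05, 10 were higher and 2 lower, beside 29.4% and 7.7% of all genes. Their median change was 0.24 beside 0.25 over all genes, and 0.28 with CG7560. The 1 gene was Gclc, the catalytic subunit of glutamate-cysteine ligase, which commits cysteine to glutathione. It was at 5.89 and 6.14 FPKM in the Con libraries, compared with 14.5 and 12.9 FPKM in the ND-75-i libraries. Replicates were close and the groups apart, with a log2 change of 1.07 (SE 0.136, adjusted p = 0.0325). Rescaling by median ratios removed the call (0.80, adjusted p = 0.0524), as did leaving out any 1 library (adjusted p of 0.0782 to 0.146).

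The other cysteine and glutathione genes were split. Gclm, the modifier subunit of the same ligase, was at 33.9 and 36.3 FPKM in the Con libraries, compared with 55.6 and 49.1 FPKM in the ND-75-i libraries (log2 change 0.56, adjusted p = 0.0593). The 2 glutathione synthetase genes Gss1 and Gss2 share 1 locus in the files, so that reads could be split between them. Gss1 was at 25.8 and 27.4 FPKM in Con versus 14.6 and 22.7 FPKM (-0.52, adjusted p = 0.182), and Gss2 at 23.9 and 21.6 FPKM in Con versus 14.8 and 16.1 FPKM (-0.53, adjusted p = 0.0702). CG5493, the cysteine dioxygenase gene, which degrades cysteine, was at 60.4 and 66.9 FPKM in Con versus 46.5 and 45.9 FPKM (-0.45, adjusted p = 0.0655, and -0.74 with an adjusted p of 0.0367 after median-ratio rescaling). Gclm, Gss1, Gss2 and CG5493 were named after their values were seen.

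Of the 4 further folate genes other than CG7560 0 passed in limma, beside 7.76% higher and 1.09% lower of all genes. By a raw p below 0.05, 2 were higher and 0 lower, beside 29.4% and 7.7% of all genes. These 4 had ND-75-i above Con without overlap, as 53.7% of all genes did. Their median change was 0.59, and 0.32 after median-ratio rescaling. CG7560, methylenetetrahydrofolate reductase, which makes the folate form used to methylate homocysteine, was at 0.245 FPKM and listed at 0 in Con and was at 3.76 and 1.59 FPKM in ND-75-i. It entered the fit through ND-75-i alone, so no test is given for it. CG2543, folylpolyglutamate synthase, was at 3.95 and 3.41 FPKM in Con versus 7.05 and 8.19 FPKM (0.88, adjusted p = 0.0594). Ts, thymidylate synthase, named after its values were seen, was at 5.21 and 7.38 FPKM in Con versus 11.8 and 9.15 FPKM (0.66, adjusted p = 0.132).

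Methionine salvage returns the methylthio group left by polyamine synthesis to methionine. Its 5 genes gave 0 calls in limma, beside 7.76% higher and 1.09% lower of all genes. By a raw p below 0.05, 4 were higher and 0 lower, beside 29.4% and 7.7% of all genes. Their median change was 0.41, or 0.12 after median-ratio rescaling. Among them, named after their values were seen, Mtap was at 82.5 and 91.1 FPKM in Con versus 117 and 121 FPKM (0.45, adjusted p = 0.0634), CG11134 at 71.9 and 83.1 FPKM in Con versus 109 and 121 FPKM (0.57, adjusted p = 0.0637) and Adi1 at 137 and 132 FPKM in Con versus 185 and 174 FPKM (0.41, adjusted p = 0.0620). After median-ratio rescaling the changes of Mtap, CG11134 and Adi1 were 0.16, 0.28 and 0.12 (adjusted p = 0.299, 0.195 and 0.437). CG11334, named after its values were seen, went the other way, at 137 and 139 FPKM in Con versus 128 and 134 FPKM. Its change was -0.07 (adjusted p = 0.492), and -0.36 after median-ratio rescaling. The carrier gene CG8026, also named after its values were seen, was at 29.7 and 36.8 FPKM in Con versus 49.5 and 53.6 FPKM (0.62, adjusted p = 0.0716).

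Genes of homocysteine methylation and glycine cleavage did not pass. The homocysteine S-methyltransferase gene CG10621 was at 455 and 577 FPKM in the Con libraries, compared with 336 and 422 FPKM in the ND-75-i libraries (-0.44, adjusted p = 0.163). The glycine cleavage genes ppl, of the H protein, and CG6415, of the T protein, were at 357 and 385 FPKM in Con versus 298 and 328 FPKM (-0.25, adjusted p = 0.153; -0.71 and 0.0344 in the quantile-normalized data) and at 265 and 237 FPKM in Con versus 283 and 311 FPKM (0.24, adjusted p = 0.169; -0.05 after median-ratio rescaling). The median over the 4 genes of glycine cleavage and sarcosine breakdown was -0.02, and it was -0.07 over the 4 genes of homocysteine methylation and the Ahcy-like proteins. Limma called 0 genes in either list, beside 7.76% higher and 1.09% lower of all genes. By a raw p below 0.05 the count was also 0, beside 29.4% and 7.7% of all genes.

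**Figure D4:**
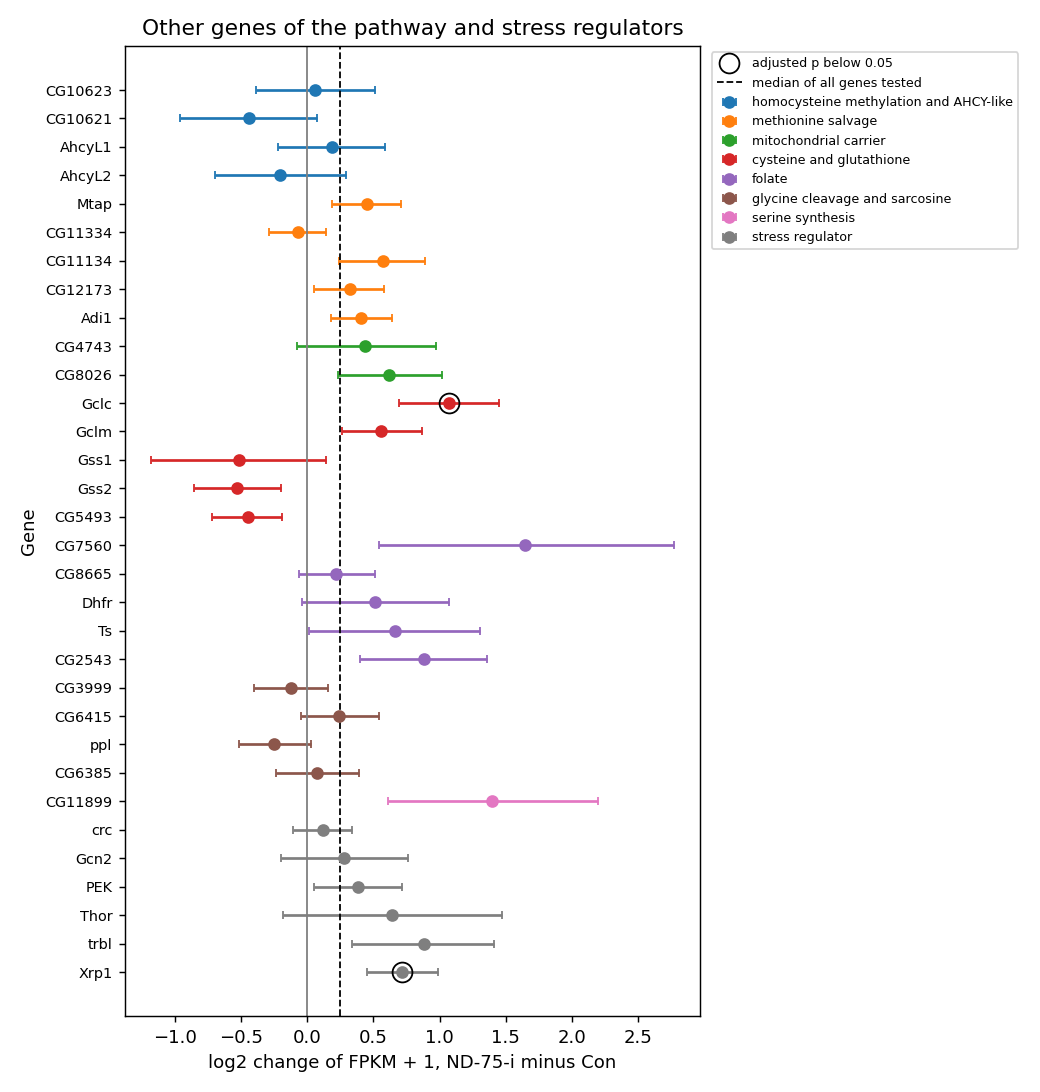
Log2 change of FPKM + 1, ND-75-i minus Con, with 95% intervals, for 26 further genes of the pathway and 6 stress regulators, coloured by role; the dashed line is the median of all genes tested, 0.25, and black rings mark an adjusted p below 0.05. Gclc (1.07) and Xrp1 (0.72) carry rings, and CG7560, which reached 1 FPKM in ND-75-i alone, and CG11899 lie farthest to the right.

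A list of 6 stress genes around ATF4, called regulators here, was read beside the members. The ATF4 gene crc was abundant and nearly flat, at 396 and 384 FPKM in the Con libraries, compared with 414 and 432 FPKM in the ND-75-i libraries (log2 change 0.12, adjusted p = 0.312, and -0.17 after median-ratio rescaling). ATF4 is controlled largely at translation, which these data do not measure. The kinase genes upstream of it were at 4.41 and 5.13 FPKM in Con versus 6.43 and 5.60 FPKM for Gcn2 (0.28, adjusted p = 0.269) and at 9.88 and 10.7 FPKM in Con versus 13.9 and 13.5 FPKM for PEK (0.38, adjusted p = 0.113).

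Of the 6 regulators 1 rose and 0 fell by the adjusted p, beside 7.76% and 1.09% of all genes tested. Xrp1, a stress-responsive bZIP factor gene, was at 176 and 191 FPKM in the Con libraries, compared with 316 and 289 FPKM in the ND-75-i libraries, a log2 change of 0.72 (SE 0.0969, adjusted p = 0.0351), which did not hold with libraries rescaled by median ratios (0.43, adjusted p = 0.0718), in the quantile-normalized data (0.31) or with any 1 library left out (adjusted p of 0.0811 to 0.159). Thor, the translation inhibitor 4E-BP, was at 662 and 1147 FPKM in Con versus 1313 and 1411 FPKM (0.64, adjusted p = 0.186), and trbl, a pseudokinase, at 13.5 and 17.6 FPKM in Con versus 26.2 and 32.5 FPKM (0.88, adjusted p = 0.0688). The 6 genes had ND-75-i above Con without overlap, where 53.7% of all genes tested did, and their median change was 0.51, or 0.23 after median-ratio rescaling.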

How the data were processed

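The tables as deposited give FPKM for each gene and library with confidence bounds and a status flag, per the file headers. The submitters' processing notes name Bowtie 0.12.2. How FPKM were computed, on which annotation and build and with which strand setting, is not given in the sources used here. Starts are printed with 1 added. Summed FPKM ranged from 849472 to 957235 per library. The number of fragments is unknown.

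The tables of 14146 lines were joined by line, because 5 names in 1 of them differed. For 93 symbols on several lines the line of highest mean was taken. Of 13880 symbols with status OK throughout, 10023 had at least 1 FPKM in at least 2 libraries. They were fitted two-sided by limma 3.58.1 (R 4.3.3) on log2(FPKM + 1), using an intensity trend and no term besides group, leaving 2 residual and 1.95 prior degrees of freedom. Changes of low genes are understated on this scale. Python 3.11.15 with pandas 2.3.3, NumPy 2.4.6 and matplotlib 3.10.9 made tables and figures. Exon overlaps are from the Ensembl annotation, used for names only.

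The procedure was tested on simulated data under 2 models of the spread. With the spread of each gene taken from its own libraries, few of the changed genes were called. A second model, which lets all genes of a level share 1 spread, was added after that outcome, and under it most were called. The second leaves out differences in spread between genes, and a gene that missed the threshold is not shown to be unchanged.

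Members and lists were chosen with earlier results of these data known. Named by rule were the members, ND-75 and w, the 6 regulators, wider-list genes past the threshold, its 3 most abundant and 3 most changed other genes, and the 2 most abundant genes per marker list. Genes named otherwise are marked. A planned motif search was not run, since promoter sequences were not used here. Alternatives were 2 other scalings, 2 other pseudocounts, 2 other low filters, no intensity trend, a replicate block and leaving out each library. Leaving out a library was first run with the low filter reapplied to the libraries left. After its counts were seen, a version that keeps the genes tested was adopted, and both are given.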

Additional observations from a re-analysis of the deposited data

How the results depend on the processing

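Leaving out a library depended on the gene set as much as on the library. With the 10023 genes kept, limma called 0 to 2 genes higher and 0 to 1 lower. With the low filter reapplied to the libraries left, a version that was run first and added to the alternatives after the data were seen, it called 0 and 0 without either Con library; without ND-75-i replicate 1 it gave 385 higher and 738 lower genes, and without ND-75-i replicate 2 it gave 104 and 28. Members then ranged from 0 to 1 higher and 0 to 2 lower, against 0 and 0 with the genes kept, and the wider list and the regulators had 0 calls in both versions. The cause was not tested. The median of the members ranged from 0.05 to 0.32, that of the regulators from 0.29 to 0.61 and that of all genes from 0.18 to 0.31. The median of the wider list, with CG7560 included where it was tested, ranged from 0.25 to 0.31.

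Against 778 higher and 109 lower genes, median-ratio rescaling called 348 and 139, quantile normalization 605 and 379, and the fit with no intensity trend 427 and 47. The median of all genes was -0.01 and 0.04 under the rescalings, 0.16 with a pseudocount of 5 and 0.18 with no low filter. Members called higher numbered 1 with a pseudocount of 5 and 2 with a mean of at least 5 FPKM, and members called lower 0 with no intensity trend. Their median was -0.10 and -0.14 under the rescalings. The wider list had 0 higher and 1 lower under median-ratio rescaling, and 2 and 3 under quantile normalization. The 2 included CG7560, which entered the fit through ND-75-i alone. With a mean of at least 5 FPKM the list had 3 and 1. Its medians under the rescalings were -0.05 and -0.01 without CG7560, and -0.0 and 0.02 with it. The regulators had 0 higher under both and with no intensity trend, with medians of 0.23 and 0.15.

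Signs turned under median-ratio rescaling and quantile normalization for Nmdmc (-0.18 and -0.09), pug (-0.01 and -0.14), CG6287 (-0.25 and -0.32), CG6415 (-0.05 and -0.20), crc (-0.17 and -0.35), w (-0.14 and -0.10), Jon65Aiv (-0.11 and -0.30) and Jon65Aiii (-0.16 and -0.29), and under the second alone for Sam-S (-0.14), CG3011 (-0.07) and apolpp (-0.24). With a library left out, changes ranged from -0.16 to 0.03 for Ahcy13, -0.06 to 0.19 for Nmdmc, -0.21 to 0.29 for CG6287, -0.60 to 0.76 for w, -1.28 to 1.64 for Jon65Aiv, -1.14 to 1.40 for Jon65Aiii and -0.49 to 0.33 for TpnC73F. Without Con replicate 1 that of w was -0.36, and without ND-75-i replicate 2 those of Jon65Aiv, Jon65Aiii and TpnC73F were -0.64, -0.73 and 0.17. The cause was not tested.

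The labels do not say whether same-numbered libraries of the groups share more than a number, and this was not tested. Their replicate differences correlated at 0.357 across genes. With a replicate block limma called 792 genes higher and 198 lower, and 2 members higher (Cbs, adjusted p = 0.0457, and aay, 0.0318). It also called 2 regulators and 2 genes of the wider list higher, the latter being Gclc (adjusted p = 0.046) and CG7560. The call of CG7560 is no result, because that gene entered the fit through ND-75-i alone.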
